A study of Arabidopsis thaliana with 6 samples.

Results

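The genes described here are the 38 cuticular wax and cutin genes of a fixed list of gene identifiers, out of 37051 genes in the count table. All 38 were found in the table. They were taken by identifier, but the list was chosen with earlier results of these data known. They comprise the condensing enzymes and other subunits of very-long-chain fatty acid elongation and the enzymes that turn the elongated chains into wax. They also include the enzymes and exporters of cutin and wax, and their SHN1 and MYB regulators. Their levels were compared between 3 tissues of the inflorescence stem of wild-type Arabidopsis thaliana, strain Col-0. The tissues were collected by laser capture microdissection, in which areas are cut from a section under a microscope, from the second internode of plants kept in short days and then moved to long days to flower. The 6 RNA-seq libraries comprised 2 each from the phloem cap, which caps the bundle on its outer side, the pith, the central parenchyma of the stem, and the vascular bundle that remained once the phloem cap had been taken, called the bundle from here on. No label names epidermis, the tissue that makes the cuticle, as part of any sample, and how many plants went into a library was not given in the sources used here. No treatment or transgene was involved.

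The cuticle is the lipid layer that seals the surface of the shoot. It consists of cutin, a polyester of hydroxylated fatty acids and glycerol, and of waxes, which are derived from very-long-chain fatty acids and lie within and on the cutin. Epidermal cells build the chains in the endoplasmic reticulum with a condensing enzyme, a reductase, a dehydratase and a second reductase, convert them to alkanes, alcohols, ketones and esters, and export them through ABC transporters of the plasma membrane with the help of lipid transfer proteins. The Arabidopsis stem is the organ in which most eceriferum (CER) wax mutants were found, by their glossy green surface.

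The libraries held 19324189 to 22571632 counts, and levels are given as CPM, counts scaled to a common library size after adjustment by the TMM method. A gene without reads could still have had up to 3 counts, or 0.126 to 0.165 CPM depending on the library. Because amplified RNA was sequenced, reads were not independent molecules and such limits cover counting error only. Tissues were compared with edgeR's quasi-likelihood test over all genes, and a gene was called if its Benjamini-Hochberg adjusted p was below 0.01 and its fold change above 2. Nothing in the sources used here says that the 2 libraries of a tissue came from separate plants, so these p-values measure the spread between the libraries, which may be technical. The tissue labels were checked against marker genes. Summed over the list, the 6 xylem and fibre markers lay at 5048 and 5271 CPM in the bundle, at 249 and 694 CPM in phloem cap and at 213 and 157 CPM in pith. The 2 phloem cap markers summed to 2291 and 2656 CPM in the phloem cap against at most 994 CPM elsewhere, and the 2 pith markers to 62.7 and 174 CPM in the pith against at most 2.23 CPM elsewhere. Other cell type markers did not all follow the labels in this way. The cambium marker PXY was highest in the pith, at 574 and 528 CPM against 324 and 280 CPM in the bundle. The other, WOX4, reached at most 0.526 CPM in the pith. SCR, a starch sheath marker, was also highest in the pith, at 19.9 and 26.8 CPM. The 6 phloem markers summed to 1949 and 1298 CPM in the phloem cap and to 1157 and 779 CPM in the bundle. The libraries of the phloem cap stood apart from each other. Phloem cap replicate 2 held more of the xylem and fibre markers than replicate 1, and results that rest on either library are given below with each of them left out.

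Sequence upstream of the genes was read for a look at what the members share beyond their function. The L1 box, a motif found in promoters of epidermal genes and spelled TAAATGCA or TAAATGTA, was searched on both strands in the 300 bases before the annotated start of each gene. It was present before 8 of the 38 members (21.1%) and before 1511 of 27444 protein-coding genes (5.51%). The 8 were KCS9, FDH, ABCG11, LTPG1, GPAT6, AT5G33370, MYB94 and MYB96, so that none of the 6 wax modification genes was among them. A GCC box, spelled GCCGCC and searched in the same way, stood before 1 member, GPAT6, and before 2.26% of the protein-coding genes. The contrast was smaller for the L1 box in a window of 1000 bases, with 11 members (28.9%) against 15.8% of the protein-coding genes. For the GCC box that window gave 5 members (13.2%) against 8.44%. The match is a description of these letters and no evidence of a bound site. The windows of 4 of the 8 genes are printed, with the motifs in capitals. FDH, ABCG11 and KCS9 had both phloem cap and both pith libraries below the vascular bundle. Among the abundant condensing enzymes, KCS9 differed least between tissues. GPAT6 was the member with the largest difference in favour of the pith. All windows were read 5′ to 3′ on the strand of the gene from the TAIR10.1 assembly with RefSeq gene starts, and none overlapped another annotated gene. The FDH window lies at chr2:11173279-11173578 (minus strand), with the L1 box starting 54 bases before the gene. The ABCG11 window lies at chr1:6142102-6142401 (plus strand), with L1 boxes starting 82 and 47 bases before the gene. The KCS9 window lies at chr2:7050499-7050798 (plus strand), with the L1 box starting 76 bases before the gene. The GPAT6 window lies at chr2:15955753-15956052 (minus strand), with the L1 box starting 266 bases and the GCC box 172 bases before the gene, both in reverse complement.
FDH: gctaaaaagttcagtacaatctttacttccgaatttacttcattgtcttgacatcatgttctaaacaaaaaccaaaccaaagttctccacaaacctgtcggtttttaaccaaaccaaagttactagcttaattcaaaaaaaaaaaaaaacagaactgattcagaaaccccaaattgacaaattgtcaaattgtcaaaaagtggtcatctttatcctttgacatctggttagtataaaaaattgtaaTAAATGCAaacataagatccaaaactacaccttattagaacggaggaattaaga
ABCG11: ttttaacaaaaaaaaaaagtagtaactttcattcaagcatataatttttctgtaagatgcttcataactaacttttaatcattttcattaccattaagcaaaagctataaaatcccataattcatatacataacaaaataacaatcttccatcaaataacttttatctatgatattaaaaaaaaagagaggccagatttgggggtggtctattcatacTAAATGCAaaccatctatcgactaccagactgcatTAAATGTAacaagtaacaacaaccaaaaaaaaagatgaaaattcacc
KCS9: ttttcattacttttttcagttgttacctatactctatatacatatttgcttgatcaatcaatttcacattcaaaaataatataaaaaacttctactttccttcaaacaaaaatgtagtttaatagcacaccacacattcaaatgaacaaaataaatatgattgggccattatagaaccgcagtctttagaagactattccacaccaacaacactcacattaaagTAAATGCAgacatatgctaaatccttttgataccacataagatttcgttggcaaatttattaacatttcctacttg
GPAT6: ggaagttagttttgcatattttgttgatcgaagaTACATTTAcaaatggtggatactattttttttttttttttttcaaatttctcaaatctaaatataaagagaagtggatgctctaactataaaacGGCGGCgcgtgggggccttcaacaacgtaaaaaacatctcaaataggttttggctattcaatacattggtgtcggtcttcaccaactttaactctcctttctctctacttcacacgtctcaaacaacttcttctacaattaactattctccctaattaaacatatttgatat

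Most of the cuticle genes had their highest level in the bundle. Both vascular bundle libraries lay above the other 4 libraries for 26 of the 38 members, where 12.6% of the 18829 genes that passed the count filter over all 6 libraries did so, and for 18 members the phloem cap libraries in turn lay above both pith libraries (5.86% of those genes). The phloem cap libraries were the highest for 0 members (17.6%) and the pith libraries for 2, GPAT6 and LACS2 (22.8%). Summed over the 38 members, the level was 2523 and 3017 CPM in the bundle libraries, 205 and 641 CPM in phloem cap replicates 1 and 2, and 173 and 261 CPM in the pith libraries. More than 3 counts were found for 35 members in each vascular bundle library, for 30 and 33 in phloem cap and for 23 and 26 in pith. In TPM, a scale that also divides the counts by gene length, 28 members exceeded a mean of 1 TPM in the bundle, 24 in phloem cap and 15 in pith. In bulk samples such as these, fewer cells that express a gene and less RNA per cell cannot be told apart.

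**Figure D1:**
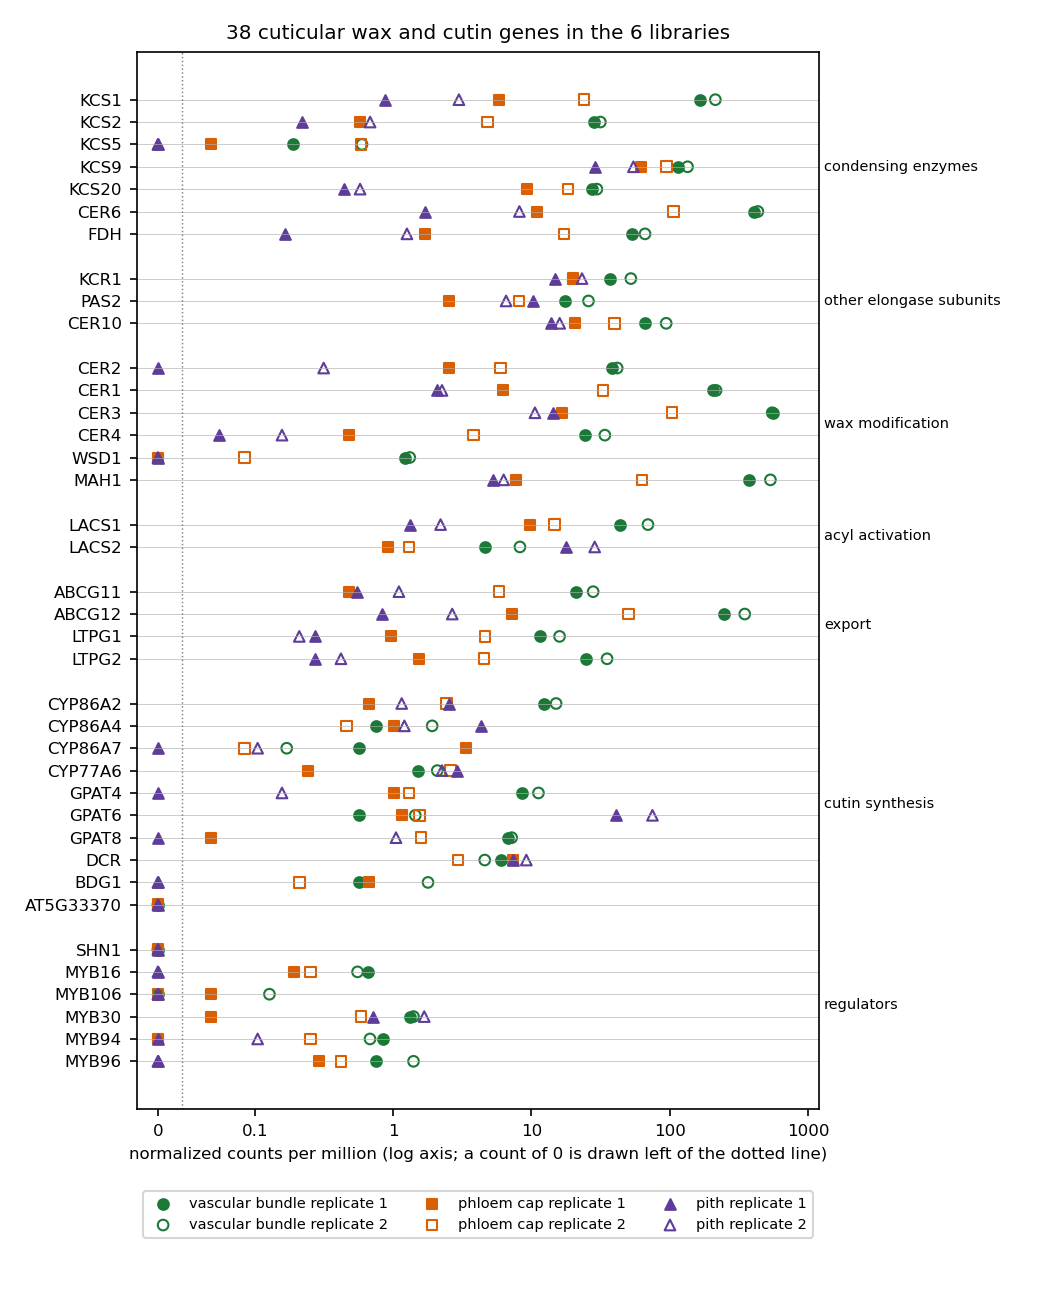
Level of each of the 38 genes in the 6 libraries, in normalized CPM on a log axis, ordered by role; filled and open symbols are replicates 1 and 2. The bundle libraries lie to the right for most genes, the phloem cap libraries lie apart from each other, and GPAT6 and LACS2 have the pith libraries furthest to the right.

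Some genes of the epidermis marker list moved with the cuticle genes. ATML1, PDF2 and ANL2, the homeodomain genes of that list with the highest levels, were measured at 28.9 and 35.9 CPM, 24.0 and 31.3 CPM, and 32.8 and 44.2 CPM in the bundle. In phloem cap replicates 1 and 2 they lay at 0.386 and 4.50 CPM, 0.531 and 4.58 CPM, and 3.19 and 6.86 CPM, and in the pith at most at 0.946 CPM. All 3 were called lower in pith against bundle by edgeR (log2 fold changes of -6.89, -6.80 and -5.62, adjusted p = 0.000353, 0.00168 and 0.000295), as were 10.5% of all genes tested. Of the 5 epidermis markers tested in phloem cap against bundle, edgeR called 0, DESeq2 called 3 lower, and 3 had lower values and 1 a higher value at an unadjusted p below 0.05. Over all genes tested DESeq2 called 3.92% lower, and 11% were lower and 9.93% higher at that unadjusted p. Not all 8 markers moved alike. PDF1, HDG2 and ALE1 were at or under 4 counts in every library, the receptor kinase gene ACR4 lay at 2.32 and 1.96 CPM in the bundle and at 0.531 and 1.93 CPM in the phloem cap, and the lipid transfer protein gene LTP1 reached its highest level, 7.24 CPM, in phloem cap replicate 1. The summed level of the 8 markers was 88.6 and 114 CPM in the bundle, 11.97 and 18.51 CPM in phloem cap and 2.86 and 1.79 CPM in pith. Their part in the levels of the cuticle genes was not tested.

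The condensing enzymes (KCS family), which set the chain length that an elongation cycle can reach, ranged from some of the most abundant members in the bundle to one that was hardly detected. CER6 (AT1G68530), the main condensing enzyme of stem wax, lies on chromosome 1 at 25712414 to 25715024 on the minus strand. It was measured at 407 and 434 CPM in the bundle, at 11 and 107 CPM in phloem cap and at 1.71 and 8.20 CPM in pith. The groups did not overlap, although phloem cap replicate 2 was 9.75 times replicate 1. KCS1 (AT1G01120), a condensing enzyme with a broad range of chain lengths, lay at 166 and 214 CPM in the bundle, at 5.79 and 24.0 CPM in phloem cap and at 0.881 and 2.996 CPM in pith. FDH (AT2G26250), whose loss makes shoot organs fuse, lay at 53.0 and 66.3 CPM, 1.69 and 17.3 CPM, and 0.165 and 1.26 CPM in the same order. The related pair KCS2 (AT1G04220) and KCS20 (AT5G43760), which act redundantly in wax and root suberin, had nearly the same level in the bundle, 28.4 and 31.6 CPM for KCS2 and 27.6 and 29.8 CPM for KCS20. They differed in the phloem cap, where KCS2 lay at 0.579 and 4.84 CPM and KCS20 at 9.37 and 18.4 CPM, and both were below 1 CPM in the pith. KCS9 (AT2G16280), whose products feed several lipid classes, showed the smallest differences of the abundant condensing enzymes, with 115 and 135 CPM in the bundle, 62.2 and 94.8 CPM in phloem cap and 28.6 and 54.7 CPM in pith. KCS5 (AT1G25450), the closest relative of CER6, stayed under 0.6 CPM in every library and was at 0 in both pith libraries.

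The other subunits of the elongase, which serve sphingolipids and storage lipids as well as wax, were spread more evenly. KCR1 (AT1G67730), the ketoacyl reductase, lay at 37.2 and 52.4 CPM in the bundle, at 19.84 and 19.98 CPM in phloem cap and at 14.9 and 23.2 CPM in pith. PAS2 (AT5G10480), the dehydratase, lay at 17.5 and 25.9 CPM, 2.56 and 8.16 CPM, and 10.4 and 6.57 CPM. CER10 (AT3G55360), the enoyl reductase, lay at 66.8 and 94.3 CPM, 20.8 and 40.0 CPM, and 13.8 and 16.0 CPM. For all 3 genes the bundle libraries were the highest, but the pith still held between 17.1% and 51.9% of the bundle mean, where CER6 held 0.406% and 1.95%.

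The wax modification genes were the group with the highest summed level in the bundle, 1208 and 1379 CPM. CER3 (AT5G57800), which acts with CER1 in forming alkanes, was measured at 562 and 551 CPM in the bundle, at 16.7 and 104 CPM in phloem cap and at 14.4 and 10.6 CPM in pith. CER1 (AT1G02205) lay at 206 and 216 CPM, 6.28 and 32.98 CPM, and 2.09 and 2.26 CPM. MAH1 (AT1G57750), the cytochrome P450 that oxidizes alkanes to secondary alcohols and ketones, lay at 376 and 535 CPM, 7.72 and 63.1 CPM, and 5.29 and 6.31 CPM. All 3 genes had the same order of tissues, with no overlap between the vascular bundle and the other libraries. CER2 (AT4G24510), needed for the longest chains, lay at 37.98 and 41.75 CPM in the bundle, at 2.56 and 5.97 CPM in phloem cap and at 0 and 0.315 CPM in pith. CER4 (AT4G33790), the reductase that makes primary alcohols, lay at 24.62 and 33.99 CPM in the bundle and at 0.483 and 3.83 CPM in the phloem cap, and had 1 and 3 counts in the pith. The ratio of the summed CER4 counts in the bundle to those in the pith, corrected for library size, was 275 (95% counting interval 107 to 1010). It rests on 4 pith counts, and the fitted log2 fold change in pith against bundle was -7.49 without pith replicate 1 and -8.91 without pith replicate 2. WSD1 (AT5G37300), the wax ester synthase, was the lowest of the group, with 1.23 and 1.32 CPM in the bundle, 0 and 0.0841 CPM in the phloem cap and 0 counts in both pith libraries, which makes it at least 7.90-fold lower in the pith against the limit of 3 counts per library.

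The acyl activation genes differed in their order of tissues. LACS1 (AT2G47240), a long-chain acyl-CoA synthetase of wax and cutin synthesis, followed the elongation genes, with 44.1 and 69.6 CPM in the bundle, 9.80 and 14.8 CPM in phloem cap and 1.32 and 2.21 CPM in pith. LACS2 (AT1G49430), its paralog known for cutin synthesis, lay at 4.59 and 8.27 CPM in the bundle, at 0.917 and 1.30 CPM in phloem cap and at 17.8 and 28.7 CPM in pith. The pith libraries were thus the highest for LACS2 and the lowest for LACS1.

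The export genes followed the wax genes. ABCG12 (AT1G51500), a transporter subunit required for wax export, was measured at 249 and 349 CPM in the bundle, at 7.24 and 50.4 CPM in phloem cap and at 0.826 and 2.68 CPM in pith. Its partner ABCG11 (AT1G17840), which exports both wax and cutin precursors, lay at 20.98 and 27.97 CPM, 0.483 and 5.85 CPM, and 0.551 and 1.10 CPM. The lipid transfer protein genes LTPG1 (AT1G27950) and LTPG2 (AT3G43720), whose products are anchored at the cell surface, lay at 11.5 and 16.0 CPM and at 24.7 and 35.3 CPM in the bundle, at 0.966 and 4.63 CPM and at 1.54 and 4.54 CPM in the phloem cap, and between 0.210 and 0.420 CPM in the pith. The bundle libraries were the highest for all 4 export genes.

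The cutin synthesis genes did not share a pattern. Their summed level was 37.9 and 45.6 CPM in the bundle, 15.6 and 13.2 CPM in phloem cap and 57.8 and 90.2 CPM in pith, and the acyltransferase gene GPAT6 made up most of the last. GPAT6 (AT2G38110), known for its part in flower cutin, lies on chromosome 2 at 15952496 to 15955752 on the minus strand, with 2 exons. It was measured at 0.568 and 1.45 CPM in the bundle, at 1.159 and 1.556 CPM in phloem cap and at 40.7 and 75.1 CPM in pith. Its relatives GPAT4 (AT1G01610) and GPAT8 (AT4G00400), which act together in the cutin of stem and leaf, lay at 8.62 and 11.3 CPM and at 6.82 and 7.21 CPM in the bundle, and at 1.01 and 1.30 CPM and at 0.0483 and 1.60 CPM in the phloem cap. In the pith GPAT4 had 0 and 3 counts and GPAT8 had 0 and 20 counts, so that the 3 acyltransferase genes did not have the same order of tissues. CYP86A2 (AT4G00360), a fatty acid hydroxylase, lay at 12.4 and 15.1 CPM in the bundle, at 0.676 and 2.44 CPM in phloem cap and at 2.533 and 1.156 CPM in pith. DCR (AT5G23940), an acyltransferase of cutin assembly, lay at 6.06 and 4.61 CPM in the bundle and at 7.32 and 9.20 CPM in pith. Both pith libraries were thus above both bundle libraries. The phloem cap, at 7.39 and 2.94 CPM, overlapped both of these tissues. The hydroxylase genes CYP86A4 (AT1G01600), CYP86A7 (AT1G63710) and CYP77A6 (AT3G10570) and the hydrolase gene BDG1 (AT1G64670) stayed under 5 CPM in every library. AT5G33370, listed with the cutin synthesis genes, was at 0 in all 6 libraries.

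Few counts were found for the regulators, none of which exceeded 1.68 CPM in any library. SHN1 (AT1G15360), an AP2/ERF factor that activates wax and cutin genes, was at 0 counts in all 6 libraries, which allows up to 0.126 to 0.165 CPM, and MYB106 (AT3G01140), a factor of epidermal cell outgrowth and cuticle, had at most 3 counts. MYB94 (AT3G47600) and MYB96 (AT5G62470), activators of wax genes, lay at 0.852 and 0.682 CPM and at 0.758 and 1.41 CPM in the bundle. MYB16 (AT5G15310), a close relative of MYB106, lay at 0.663 and 0.554 CPM in the bundle and, like MYB96, at 0 in both pith libraries. MYB30 (AT3G28910), which activates very-long-chain fatty acid synthesis and cell death in response to bacteria, lay at 1.33 and 1.41 CPM in the bundle, at 0.0483 and 0.589 CPM in phloem cap and at 0.716 and 1.68 CPM in pith, so that pith and vascular bundle overlapped.

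Levels between genes can be compared per length only. In the vascular bundle MAH1 had the highest mean TPM of the members, 515 (411 and 619 in the replicates), followed by CER6 with 345 (324 and 365), CER3 with 302 (297 and 308), KCS1 with 199 (169 and 229) and ABCG12 with 181 (145 and 216). The replicates of KCS1 and ABCG12 overlapped, whereas those of MAH1, CER6 and CER3 did not overlap with each other. These values use the gene length with introns, and part of the order depends on it. By merged exon length MAH1 was still first, with a mean of 390 TPM. CER3 (347 TPM) then lay above CER6 (260.5 TPM), and ABCG12 (186 TPM) above KCS1 (150 TPM). In the pith the first places went to KCS9 with a mean of 37.1 TPM (25.1 and 49.1), GPAT6 with 34.1 TPM (23.6 and 44.6), KCR1 with 14.3 TPM (11 and 17.6), CER10 with 13.2 TPM (12.04 and 14.3) and LACS2 with 8.99 TPM (6.79 and 11.2). KCS9 and GPAT6 overlapped, as did KCR1 and CER10. By gene length with introns, GPAT6 was in 33rd place among the members in the bundle and in 2nd place in the pith. On that scale MAH1 moved from 1st to 8th and CER6 from 2nd to 10th. By merged exon length GPAT6 (37.7 TPM) lay above KCS9 (27.9 TPM) in the pith.

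**Figure D2:**
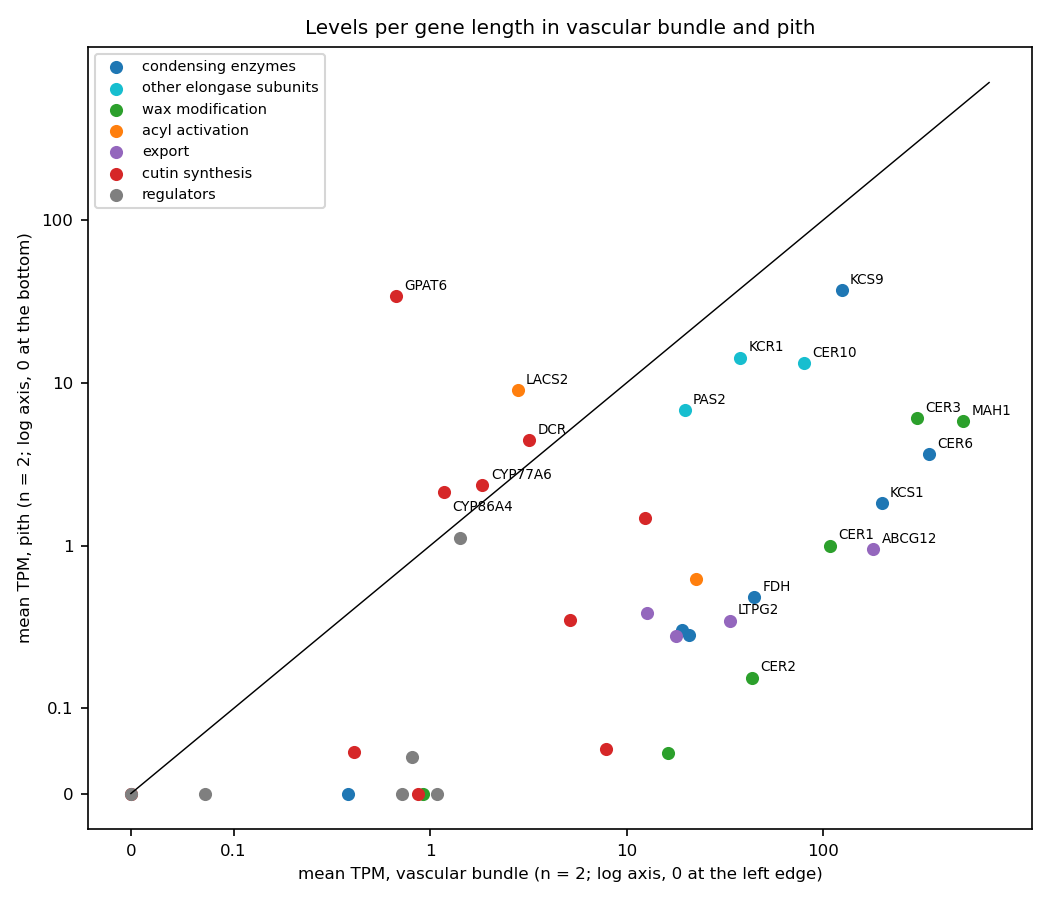
Mean TPM in the pith (vertical) against mean TPM in the bundle (horizontal), both on log axes with 0 at the edge, 1 point per gene, n = 2 libraries per tissue, with a line at equal levels. GPAT6 (34.1 against 0.671 TPM) and LACS2 (8.99 against 2.79 TPM) lie above the line, and the elongase subunits lie closer to it than MAH1, CER6 or CER3.

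The first comparison asked how the pith differed from the vascular bundle. Of the 38 members, 33 passed the count filter and were tested, and edgeR called 19 of them lower and 1 higher in the pith. Over all 18063 genes tested, 10.5% were called lower and 5.44% higher. The median log2 fold change of the tested members was -5.79, beside -0.04 over all genes tested, and 28 of the 33 were negative. In 4 of the 33 (WSD1, BDG1, MYB16 and MYB96) both pith libraries were at 0 and the fitted value is no bound, and with these genes set to their bound the median was -3.71. By role, the genes called lower were 5 of the 6 condensing enzymes tested, all 6 wax modification genes, all 4 export genes, LACS1, CER10, CYP86A2 and GPAT4. Of the 4 regulators tested, edgeR called 0, 3 had an unadjusted p below 0.05, and DESeq2 called 1, MYB96, lower.

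The log2 fold changes of the abundant members differed widely. Relative to the vascular bundle, KCS1 fell by 6.61 ± 0.56 (log2 fold change ± SE, n = 2 per tissue; edgeR adjusted p = 0.000439). CER1 had a log2 fold change of -6.60 ± 0.28 (edgeR adjusted p = 0.000255) and CER6 one of -6.41 ± 0.70 (adjusted p = 0.00109). For MAH1 it was -6.30 ± 0.33 and for CER3 -5.48 ± 0.29, both with an adjusted p of 0.000255 by edgeR. The export gene ABCG12 had one of -7.41 ± 0.57 (edgeR adjusted p = 0.000348) and ABCG11 one of -4.88 ± 0.45 (adjusted p = 0.000598). CER10 was called with a smaller change of -2.44 ± 0.28 (edgeR adjusted p = 0.00125). KCS9, KCR1 and PAS2 were not called, with log2 fold changes of -1.59 ± 0.34, -1.24 ± 0.32 and -1.36 ± 0.36 and adjusted p-values of 0.0129, 0.0267 and 0.029. GPAT8 was not called either (-3.71 ± 1.10, edgeR adjusted p = 0.0418), and its pith replicates lay at 0 and 1.05 CPM.

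GPAT6 was the 1 member called higher in the pith, by 5.81 ± 0.55 on the log2 scale (edgeR adjusted p = 0.000636). LACS2 missed the threshold in this comparison (1.85 ± 0.41, edgeR adjusted p = 0.0149), although both pith libraries were above both bundle libraries. DCR (0.63 ± 0.38), CYP77A6 (0.52 ± 0.56) and CYP86A4 (1.03 ± 0.81) had positive values with edgeR adjusted p-values of 0.255, 0.531 and 0.383. For DCR and CYP77A6, though not for CYP86A4, both pith libraries also lay above both bundle libraries. The Wald test in DESeq2, used in the study, called 24 members lower and 2 higher (GPAT6 and LACS2), over a background of 13.6% lower and 8.19% higher. ABCG11, CYP86A2 and WSD1 lost their call in 1 fit over all 6 libraries (edgeR adjusted p = 0.0122, 0.016 and 0.0185). CYP86A2 and WSD1 also lost it when either vascular bundle library was left out (adjusted p up to 0.0433 and 0.116), whereas GPAT6 remained called without any 1 of the 4 libraries.

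**Figure D3:**
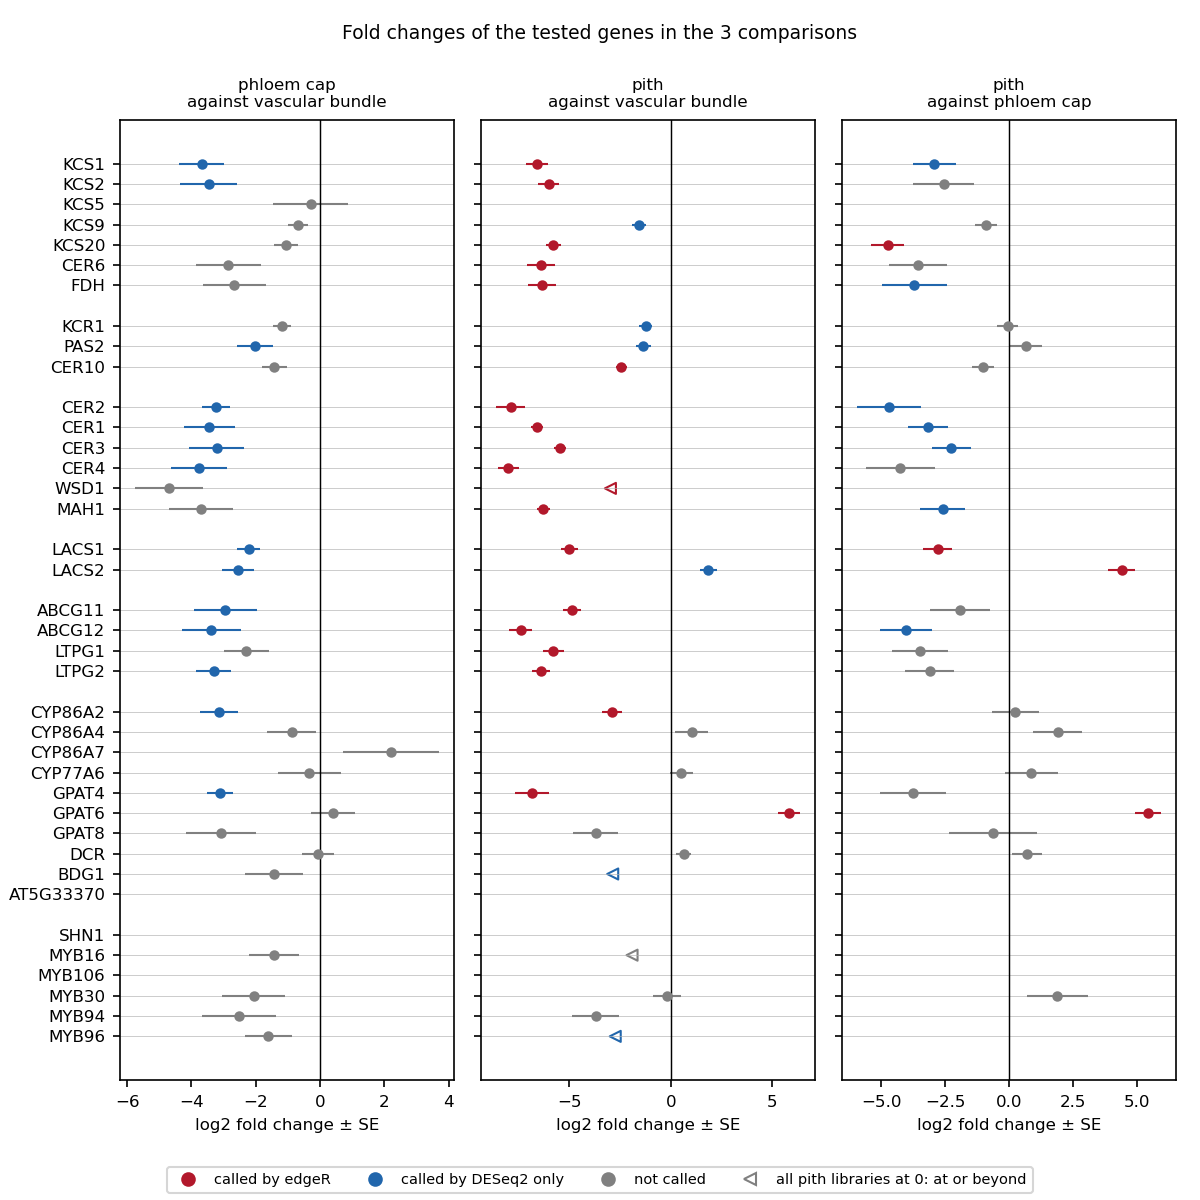
Log2 fold changes with their SE (bars) for the members tested in each of the 3 comparisons, n = 2 libraries per tissue; red marks genes called by edgeR, blue genes called by DESeq2 alone, and triangles the bound for genes at 0 in both pith libraries. No gene is red in the phloem cap comparison, 20 are red in pith against vascular bundle and 4 in pith against phloem cap.

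The second comparison set the phloem cap against the vascular bundle. Here 35 members were tested and edgeR called 0 of them higher and 0 lower, as for all 18528 genes tested (0% and 0%), the smallest adjusted p over all genes being 0.0486, which was that of GPAT4. At an unadjusted p below 0.05, 23 members were lower and 0 higher, beside 11% and 9.93% of all genes tested. DESeq2 called 14 members lower and 0 higher, where it called 3.92% of all genes lower and 2.89% higher. The median log2 fold change of the members was -2.51, beside 0.04 over all genes, and both phloem cap libraries lay below both bundle libraries for 28 of the 35 members and above them for 0. Over all genes tested these shares were 26.4% and 27.5%. The 14 were KCS1, KCS2, PAS2, CER1, CER2, CER3, CER4, LACS1, LACS2, ABCG11, ABCG12, LTPG2, CYP86A2 and GPAT4.

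The log2 fold changes with the smallest SE in this comparison were those of KCR1 (-1.18 ± 0.28, edgeR adjusted p = 0.0778), KCS9 (-0.68 ± 0.31, adjusted p = 0.274) and LACS1 (-2.22 ± 0.36, adjusted p = 0.055). CER6 and MAH1 had larger values with a larger SE, -2.85 ± 1.0 and -3.70 ± 0.99 (edgeR adjusted p = 0.193 and 0.113). The count of calls changed with the library left out. Without phloem cap replicate 1 the median of the log2 fold changes was -1.99, and without phloem cap replicate 2 it was -3.84. EdgeR called members lower in both fits and CYP86A7 higher in the second. The shares of all genes called were not calculated for these fits. The library kept as the only one of its tissue is there assumed to vary like the other group. Without either of the bundle libraries the count stayed at 0.

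How far the 2 phloem cap libraries lay apart was followed gene by gene for the 24 members with a mean of at least 5 CPM in the bundle, a limit that does not use their phloem cap level. In 23 of the 24 the level was higher in replicate 2, and in 16 it was more than 2 times that of replicate 1, with a median ratio of 3.87. Over the 13086 genes with the same minimum and a count in replicate 1, 51.9% were higher in replicate 2, 7.95% by more than 2 times, and the median ratio was 1.02. The ratio was 12.1 for ABCG11, 10.2 for FDH, 9.75 for CER6, 8.17 for MAH1 and 6.22 for CER3, and it was 33.1 for GPAT8, which had 1 count in replicate 1. It was lowest for the elongase subunit KCR1 (1.01), for GPAT4 (1.29), LACS2 (1.42), LACS1 (1.51) and KCS9 (1.52), and DCR was the exception with 0.399. Of the 8 epidermis markers, 3 reached the same minimum, with ratios of 11.6 for ATML1, 8.63 for PDF2 and 2.15 for ANL2, whereas LTP1, below that minimum, lay at 7.24 CPM in replicate 1 and 0.631 CPM in replicate 2, and the 6 xylem and fibre markers had ratios of 2.23 to 4.24. The part of either cell type in the difference was not tested.

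Expressed as a percentage of the bundle mean, the wax modification genes other than WSD1 lay close together in each phloem cap library, at 1.65% to 6.42% in replicate 1 and at 13.1% to 18.7% in replicate 2. The 4 export genes held 1.97% to 7.04% and 15.1% to 33.7%. ATML1, PDF2 and ANL2 held 1.19% to 8.27% and 13.9% to 17.8%. The 6 xylem and fibre markers held 2.04% to 13.5% and 4.83% to 30.1%. In contrast, KCS9 held 49.8% and 75.9%, KCS20 held 32.7% and 64.3%, and KCR1 held 44.3% and 44.6%. KCS9, KCS20 and the elongase subunits KCR1 and CER10 were thus among the members nearest to the vascular bundle level in both phloem cap libraries, of the 24 with at least 5 CPM in the bundle, and DCR held 138% and 55.2%. The epidermis markers ACR4 and LTP1 were below that limit, with bundle means of 2.14 and 0.474 CPM. In phloem cap replicates 1 and 2, ACR4 lay at 0.531 and 1.93 CPM and LTP1 at 7.24 and 0.631 CPM.

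**Figure D4:**
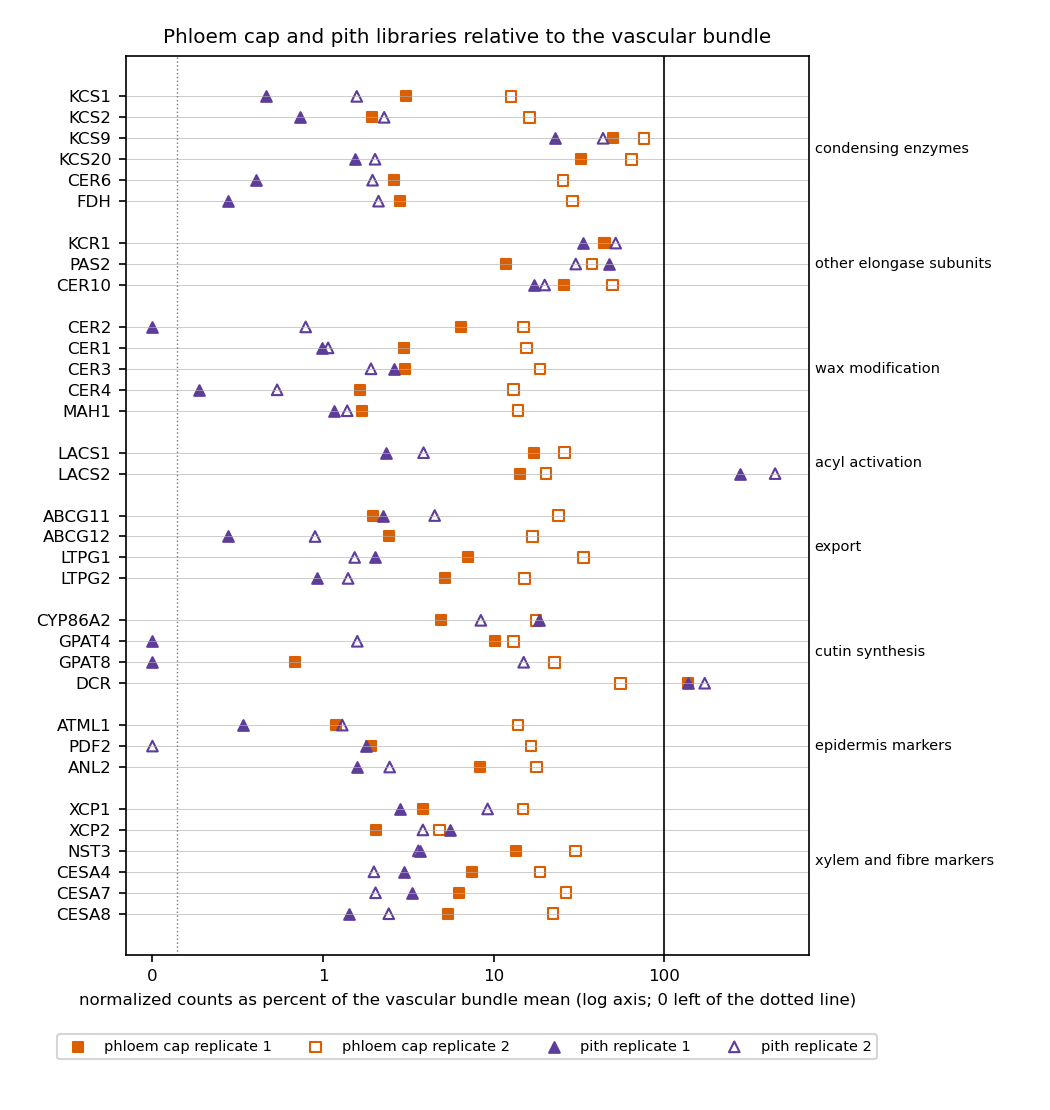
Level in each phloem cap and pith library as a percentage of the bundle mean (log axis; line at 100%), for the 24 members, 3 epidermis markers and 6 xylem and fibre markers with at least 5 CPM in the bundle. The wax genes and the epidermis markers ATML1, PDF2 and ANL2 lie at 13.1% to 18.7% in phloem cap replicate 2, and the xylem and fibre markers at 4.83% to 30.1%. GPAT6 and the other epidermis markers, ACR4 and LTP1 among them, are not shown because their vascular bundle means are below the limit.

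The third comparison set the pith against the phloem cap, with 28 members tested. GPAT6 (5.41 ± 0.50, edgeR adjusted p = 0.000329) and LACS2 (4.38 ± 0.53, adjusted p = 0.000857) were called higher in the pith, and KCS20 (-4.75 ± 0.64, adjusted p = 0.00139) and LACS1 (-2.79 ± 0.56, adjusted p = 0.0082) lower. Over all 18201 genes tested, 4.34% were called higher and 8.33% lower, shares close to those of the 28 members. At an unadjusted p below 0.05 by edgeR, 15 members were lower and 2 higher, beside 22% and 15.3% of all genes tested. DESeq2 called GPAT6 and LACS2 higher and 9 lower, over a background of 7.20% and 12.3%. The median log2 fold change was -2.41, beside -0.07 over all genes, and it was -0.42 without phloem cap replicate 2. KCS20 and LACS1 lost their call without phloem cap replicate 2, and LACS1 also without phloem cap replicate 1 or pith replicate 1. GPAT6 and LACS2 were called higher without any 1 of the 4 libraries. The comparison shares its pith and phloem cap libraries with the 2 comparisons above, and is given as its own values only. For CER6 and MAH1 the values were -3.56 ± 1.12 and -2.60 ± 0.87 (edgeR adjusted p = 0.0547 and 0.0667), and for KCR1 and PAS2 -0.06 ± 0.40 and 0.66 ± 0.64 (adjusted p = 0.934 and 0.505).

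Other genes of the same pathways, 28 in a second list, were read for comparison. In pith against bundle 20 were tested, and edgeR called 9 lower (KCS3, KCS4, KCS8, KCS12, KCR2, LACS3, ABCG32, LTL1 and SHN3) and 0 higher, where 10.5% and 5.44% of all genes tested were called. At an unadjusted p below 0.05, 12 were lower and 1 higher (24.1% and 18.2% of all genes), and DESeq2 called 10 lower and 0 higher (13.6% and 8.19%). LACS3, an acyl-CoA synthetase gene, lay at 66.6 and 82.5 CPM in the bundle, at 3.52 and 9.63 CPM in phloem cap and at 0.661 and 0.999 CPM in pith. KCS3 lay at 65.7 and 65.1 CPM, 2.85 and 11.1 CPM, and 1.27 and 0.841 CPM. SHN3, a relative of SHN1 that can also activate cuticle genes, was the SHN gene with reads in these libraries, at 12.1 and 11.3 CPM in the bundle, 0.434 and 1.43 CPM in phloem cap and 0.110 and 0.210 CPM in pith, whereas SHN2 stayed at 3 counts or fewer. ABCG32, a transporter for cutin precursors, lay at 31.1 and 37.9 CPM, 0.193 and 11.6 CPM, and 0.165 and 2.68 CPM. The 3 genes of the list with the highest level averaged over the 6 libraries, in CPM as in TPM, were the ubiquitin ligase gene CER9, DEWAX, a repressor of wax genes, and LACS4. EdgeR called none of the 3 in any comparison. CER9 lay at 135 and 151 CPM in the bundle, at 146 and 119 CPM in phloem cap and at 226 and 321 CPM in pith, and DEWAX at 180 and 120 CPM, 102 and 114 CPM, and 219 and 241 CPM. In phloem cap against bundle, 21 were tested, edgeR called 0, 10 were lower and 1 higher at an unadjusted p below 0.05 (11% and 9.93% of all genes), and DESeq2 called 6 lower and 0 higher (3.92% and 2.89%). In the pith against the phloem cap, 14 were tested and edgeR called KCS4 alone (lower, -2.72 ± 0.43, edgeR adjusted p = 0.00274), while DESeq2 called 3 lower and 1, DEWAX, higher (over all genes 12.3% and 7.20%).

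Suberin, the polyester of root and wound barriers, is made by relatives of the cutin enzymes. Of 11 suberin genes, 8 had 3 counts or fewer in every library. ABCG20 was the 1 gene tested, at 7.67 and 5.80 CPM in the bundle, 7.39 and 11.1 CPM in phloem cap and 14.7 and 9.78 CPM in pith, and it was not called in any of the 3 comparisons. The genes with the next highest levels, CYP86A1 and GPAT5, reached 0.434 and 0.290 CPM in phloem cap replicate 1 and were at 0 in both pith libraries.

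Counting limits concern 9 of the 38 members, whose annotated span overlaps another gene, KCS2, CER10, CER2, ABCG11, LTPG1, CYP86A2, BDG1, AT5G33370 and MYB106. Because strand was ignored, reads of their overlapping parts cannot be assigned to 1 gene. Windows of 50 exonic bases that occur elsewhere in the genome made up at most 0.586% of a member, also among the KCS, GPAT and CYP86A relatives.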

How the data were processed

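The 6 libraries were sequenced in single-end mode after RNA amplification. The authors mapped untrimmed reads to TAIR10 using STAR (version 2.5.0a), kept unique alignments, assigned them to Araport11 genes without regard to strand and with introns as part of the gene, and deposited the resulting raw counts, which are not normalized. Groups were taken from the tissue labels, which give no replicate numbers, and replicate numbers here only name a library. The chi-square per degree of freedom between replicates was 37 for vascular bundle, 118 for phloem cap and 66.1 for pith, so that none was a library deposited more than once. All count columns were used (0 unused).

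Counts were analysed in R 4.3.3 with edgeR 4.0.16 (filterByExpr, TMM, glmQLFit with robust estimation, glmQLFTest) on the 4 libraries of each comparison, with Benjamini-Hochberg adjustment over all genes tested and the thresholds of the study (adjusted p below 0.01, fold change above 2). The SE was calculated back from the F statistic. The Wald test in DESeq2 1.42.0, which the study used, was an alternative, as were DESeq2 size factors, no count filter, 1 fit over all 6 libraries, an adjusted p of 0.05 and each library left out. TPM used the gene length with introns, with merged exon length as the alternative. All 37051 identifiers were found in the RefSeq annotation of TAIR10.1, which has the nuclear chromosome sequences of TAIR10 and gave coordinates and upstream sequence (Python 3.11.15). Bounds were calculated against 3 counts per library. The tests were also run on simulated counts, with large changes set in well-detected genes only. That run does not cover members with few counts, and no result above rests on it.

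The members and all gene lists were chosen with earlier results of these data known. All 38 members could be named, and of the other lists the genes called, the epidermis markers and the 3 most abundant genes of a list. Nuclei-based libraries of the study were not analysed here.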

Additional observations from a re-analysis of the deposited data

How the results depend on the processing

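The phloem cap comparison depended on the tool and on single libraries. Members called lower in phloem cap against vascular bundle numbered 0 by edgeR, 14 by DESeq2, 2 without a count filter and 1 at an adjusted p below 0.05. Members called higher there numbered 0 by edgeR and by DESeq2. Calls changed when a phloem cap library was left out, and the median log2 fold change was then -1.99 or -3.84. Shares over all genes were calculated for the main test and DESeq2 only. In the pith against the vascular bundle the count of members called higher was 1 by edgeR. It was 2 by DESeq2, without a count filter and at an adjusted p below 0.05. The 19 members called lower there stayed within 1.5 times that count under every alternative. In the pith against the phloem cap the 2 members called higher were called under every alternative, and the members called lower numbered 2 by edgeR, 9 by DESeq2, 4 without a count filter, 4 in 1 fit over all 6 libraries and 9 at an adjusted p below 0.05, and ranged from 0 to 7 with a library left out. The cause of these differences was not tested. Of 240 values for single called members under the alternatives, 12 lost the call and 0 changed sign. The values at an adjusted p below 0.05 come from the main fit and could not lose the call. No value of phloem cap against vascular bundle is among the 240, because edgeR called 0 members there. Counts of members above 5 TPM in place of 1 TPM were 22 for vascular bundle, 14 for phloem cap and 8 for pith. No paired analysis was possible because the labels give no replicate numbers. Depth limits the regulators most, and of these MYB96 was called lower in pith against vascular bundle by DESeq2, without a count filter and without either pith library, but not by edgeR with all 4 libraries.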
